A study of Mus musculus with 24 samples.

Results

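The genes described here are 10 enzymes that build and cap the O-linked sugar chains of mucins and other glycoproteins: Galnt3, C1galt1, C1galt1c1, B3gnt6, Gcnt3, B3gnt7, B3galt5, Fut2, B4galnt2 and St6galnac1. They were taken by symbol from a table of 24421 genes, and all 10 were found and passed the filter on low values in both tissues. RNA was measured in colon and ileum of the same 12 C57BL/6 mice aged 8 to 14 weeks, which gave 24 libraries of epithelial cells sorted as CD45-negative and positive for a tomato reporter of Villin, a brush border gene that is active throughout the intestinal epithelium. The groups were KO late (8 weeks after chimerism, mice 49, 50 and 57), KO early (2 weeks after chimerism, mice 100, 117, 118 and 120), WT irradiated (8 weeks after chimerism, mice 59 and 61) and WT non-irradiated (labelled as not treated, mice 72, 73 and 75). KO late, KO early and WT irradiated thus all carry a time after chimerism, which WT non-irradiated lacks, and WT irradiated matches only KO late in time. The series title speaks of gut macrophages deficient in IL-10Rα, of IL-23 and of IL-22, whereas the labels say KO and name neither the gene nor the donor cells. The sorted cells are epithelium, so the libraries do not test the KO label.

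Mucin-type O-glycans start when a polypeptide GalNAc transferase puts GalNAc on a serine or threonine. A galactose then makes core 1, or a GlcNAc makes core 3, and a GlcNAc branch turns these into core 2 and core 4. Chains are lengthened with galactose and GlcNAc and capped with fucose, sialic acid, sulfate or GalNAc, and the caps serve as binding sites and food for gut bacteria. In mice, Fut2 in the ileum is known to be inducible through IL-22 and lymphoid cells, while the colon expresses it constitutively.

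Values are normalised reads, that is, reads per gene after each library was scaled by its own size factor. Libraries held 8.32 to 18.7 M reads (median 13.2 M), and the ribosomal RNA precursor Rn45s took 0.0642 to 29.4% of them. Fold changes were computed as differences of log2(value + 1), are given with the standard error, and were tested with limma with Benjamini-Hochberg adjustment over all genes tested. A gene was called at an adjusted p under 0.05. All 7 epithelial markers were detected in every group, while the 11 leukocyte markers summed to 321 to 908 normalised reads per library and the 7 epithelial markers to 51564 to 204295. A separate list of 8 neutrophil markers summed to 61.8 to 3862 per library. None of the lists of epithelial, goblet, colonocyte, enterocyte, leukocyte, neutrophil and stromal markers held a gene at 0 in every library of a group. In these bulk samples fewer cells of a type and less RNA per cell cannot be told apart.

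The enzymes differed widely in level. Per kb of exon (annotation GENCODE M21), B4galnt2 stood first in both tissues, with 6314 ± 1494 normalised reads per kb in colon and 6770 ± 1349 in ileum (SD, n = 12 mice of all groups). B4galnt2 adds the terminal GalNAc of the Sda and Cad antigens. In colon B3galt5 (2422 ± 1012) came next, and C1galt1 (448 ± 80.1), C1galt1c1 (366 ± 64.3) and Galnt3 (300.3 ± 106) followed each other below Fut2, B3gnt7 and Gcnt3, in the mean of all KO as of all WT mice. C1galt1c1 and Galnt3 differed by less than the SD of Galnt3 but by slightly more than that of C1galt1c1. In KO late colon alone (n = 3) the order differed: C1galt1 (508 ± 19.1) and Galnt3 (427 ± 87.9) stood above B3gnt7 (424 ± 233), and C1galt1c1 (413 ± 80.8) below it. The order of Fut2, B3gnt7 and Gcnt3 differed between KO and WT means. Fut2 had 1293 ± 659 normalised reads per kb in KO colon (SD, n = 7) and 471 ± 151 in WT colon (n = 5), B3gnt7 had 702 ± 375 in KO and 560 ± 218 in WT, and Gcnt3 had 661 ± 237 in KO and 1325 ± 341 in WT. Fut2 thus stood above B3gnt7 and Gcnt3 in KO colon and below both in WT colon. In ileum Gcnt3 (354 ± 113 per kb), C1galt1c1 (336 ± 89.0), B3gnt7 (244 ± 161), C1galt1 (187 ± 35.4) and Galnt3 (166 ± 29.4) came next over all 12 mice, and neighbours in this order differed by less than the larger of their SDs. Fut2 and B3galt5 had 98.9 ± 114 and 97.6 ± 109 normalised reads per kb in ileum over all 12 mice. In this mean they were the lowest of the members other than B3gnt6 (16.9 ± 4.91) and St6galnac1 (3.48 ± 1.99). In KO early ileum alone (n = 4) the order differed. There the means of Fut2 (204 ± 157) and B3galt5 (194 ± 156) stood above those of C1galt1 (168) and Galnt3 (151), while B3gnt6 and St6galnac1 still came last. In colon too, B3gnt6 (29.4 ± 15.3 per kb) and St6galnac1 (3.68 ± 2.03) came last.

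Colon epithelium carried more RNA of 7 of the 10 enzymes than ileum epithelium of the same mice, and of none of them less. Of all 19588 genes tested in this comparison, 33.5% were called in either direction, 15% higher in colon and 18.5% lower. The members' median log2 fold change was 0.98, against 0.04 over all genes. B3galt5 and Fut2 rose most among the members, then B3gnt7, Gcnt3, C1galt1, B3gnt6 and Galnt3, while B4galnt2, C1galt1c1 and St6galnac1 were not called. The share of all genes without overlap between colon and ileum, or higher in colon in every mouse, was not computed. Non-overlap between the tissues and counts of mice higher in colon are therefore descriptions of these members, with no background.

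B3galt5 adds the β1,3-linked galactose that makes type 1 chains, on which Fut2 then acts. Its level in colon was 5807 to 22225 normalised reads (median 13098) and in ileum 185 to 2129 (median 319.7), and the tissues did not overlap. It was 32-fold higher in colon (log2 5.0 ± 0.25, limma adjusted p = 1.39e-13), higher in 12 of 12 mice, with a fold per mouse between 10.3 and 67.2. Both KO early mice with the highest ileal level, 118 and 120, had 1452 and 2129 normalised reads there, and every other ileum had at most 414.5.

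Fut2 adds the α1,2-linked fucose that makes H antigens in secretions and on the epithelial surface. It had 904 to 7459 normalised reads in colon (median 1972) and 66.4 to 1243 in ileum (median 155), and it was 11.7-fold higher in colon (log2 3.55 ± 0.30, limma adjusted p = 1.41e-09). It was higher in colon in 12 of 12 mice, by 3.70- to 26.9-fold. The ileum of mouse 120 (1243 normalised reads) lay above the lowest 2 colon libraries, those of WT mice 61 and 75 (904 and 906).

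B3gnt7, which adds GlcNAc to lengthen lactosamine chains, had 538 to 2989 normalised reads in colon (median 1746) and 157 to 1550 in ileum (median 480). The tissues overlapped, and it was 2.83-fold higher in colon (log2 1.5 ± 0.26, limma adjusted p = 7.48e-05), in 11 of 12 mice. Gcnt3, which makes the core 2 and core 4 branches, had 1564 to 7167 normalised reads in colon (median 3654) and 561 to 2260 in ileum (median 1519). It was 2.53-fold higher in colon (log2 1.34 ± 0.20, limma adjusted p = 1.14e-05), also in 11 of 12 mice, the exception being the KO late mouse 50 with 1564 in colon and 2120 in ileum.

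C1galt1, the core 1 synthase, had 1947 to 3323 normalised reads in colon and 907 to 1644 in ileum, with no overlap. It was 2.32-fold higher in colon (log2 1.21 ± 0.11, limma adjusted p = 1.02e-08) in 12 of 12 mice. C1galt1c1 encodes Cosmc, the chaperone that the core 1 synthase needs in order to fold, and it lay at 397 to 668 normalised reads in colon and 283 to 764.5 in ileum. Its difference was small (log2 0.10 ± 0.14, 95% interval -0.19 to 0.38, limma adjusted p = 0.63), with 7 of 12 mice higher in colon. Galnt3, one of the transferases that start the chain, was 1.65-fold higher in colon (log2 0.72 ± 0.13, limma adjusted p = 8.17e-05) in 11 of 12 mice. Its fold per mouse was 0.99 to 1.87 in WT mice and 1.47 to 2.61 in KO mice.

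B3gnt6, the core 3 synthase, had 21.7 to 150.4 normalised reads in colon (median 61.6) and 30.1 to 68.7 in ileum (median 36.2). It was 1.68-fold higher in colon (log2 0.75 ± 0.20, limma adjusted p = 0.0063) in 9 of 12 mice. The exceptions were KO mice 100, 118 and 57, at 0.91-, 0.58- and 0.69-fold. KO mice reached at most 1.91-fold, whereas WT mice had 2.01- to 4.59-fold. This describes these mice only. A difference of B3gnt6 between KO and WT irradiated mice in this fold was not called (limma adjusted p = 0.908 in KO late and 0.541 in KO early). Without the 3 colon and 6 ileum libraries with over 10% Rn45s the call of B3gnt6 was lost (log2 0.62, adjusted p = 0.120), while that of St6galnac1 was gained (log2 1.06, adjusted p = 0.0425), and the other 6 calls held. St6galnac1 makes the sialyl-Tn structure by adding sialic acid to the first GalNAc. It had 0 to 24 reads per library, that is 1.3 to 19.3 normalised reads in colon and 0 to 15.1 in ileum (log2 0.22 ± 0.38, limma adjusted p = 0.69), so that counting error alone is large. B4galnt2 had 4870 to 14583 normalised reads in colon and 8664 to 16537 in ileum. Its log2 difference was -0.18 ± 0.13 (95% interval -0.45 to 0.09, limma adjusted p = 0.331), with 4 of 12 mice higher in colon.

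**Figure D1:**
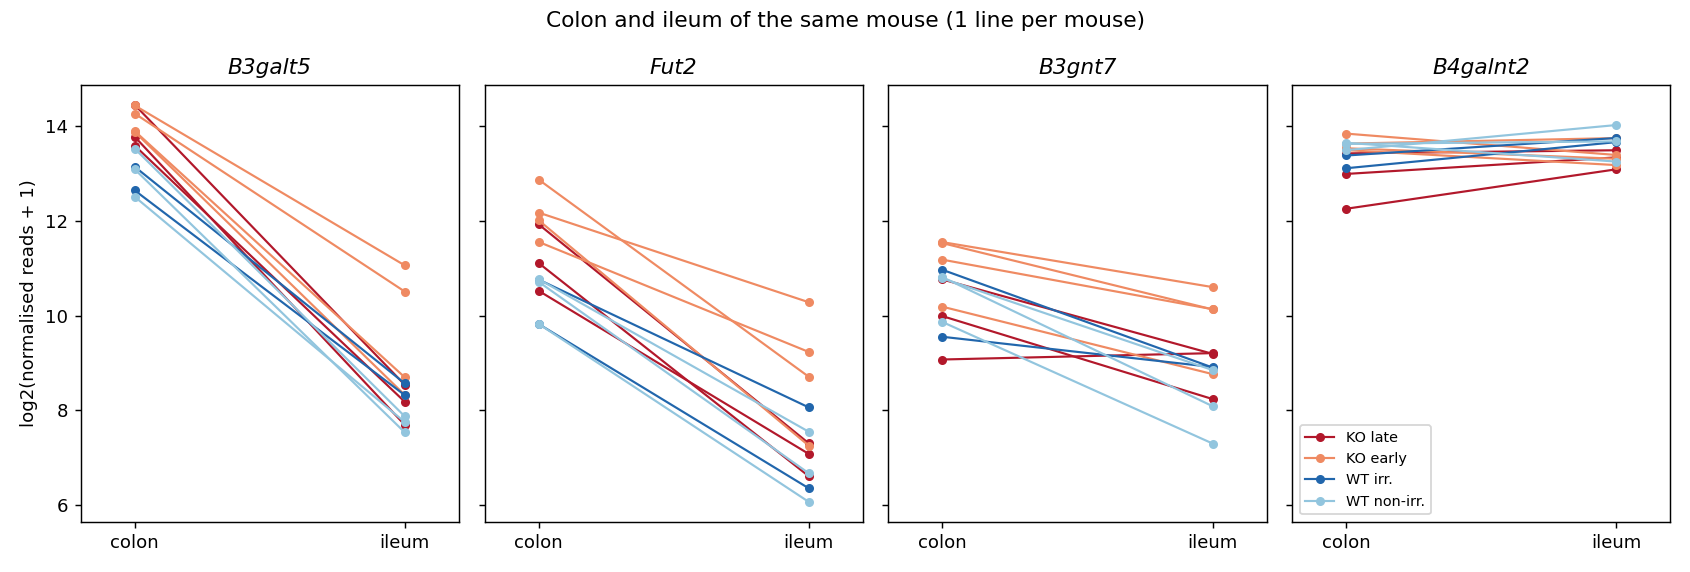
Level of B3galt5, Fut2, B3gnt7 and B4galnt2 on a log2(normalised reads + 1) axis in colon (left) and ileum (right), with 1 line per mouse coloured by group. The lines of B3galt5 and Fut2 slope down towards ileum in all 12 mice, those of B4galnt2 run close to level, and the KO early mice 118 and 120 end highest for B3galt5 in ileum.

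**Figure D2:**
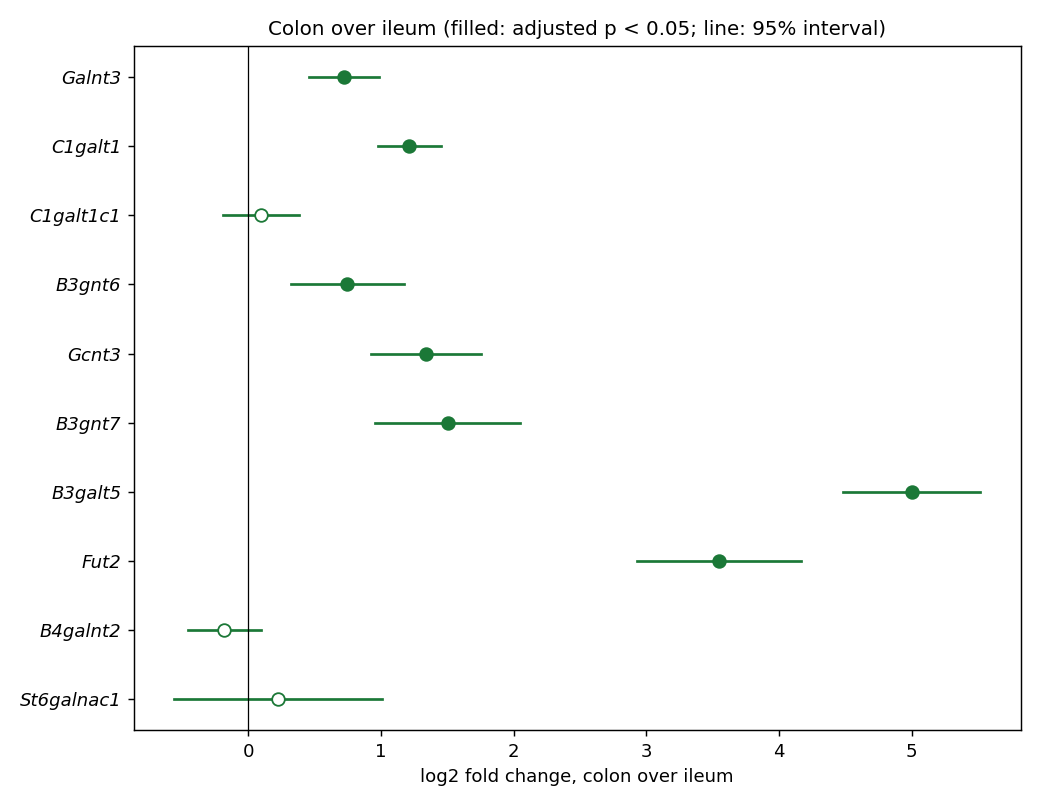
Log2 fold change of each of the 10 enzymes, colon over ileum, with the 95% interval of the limma fit over 24 libraries. Filled points are called at an adjusted p under 0.05, and B3galt5 (5.0) and Fut2 (3.55) stand apart from the other 8, which lie between -0.18 and 1.5.

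Cell type markers differed between the tissues as well. All 9 enterocyte markers were lower in colon, with sums of 3411 to 8712 normalised reads in colon libraries and 166718 to 532133 in ileum libraries, and 6 of 8 colonocyte markers were higher and 1 lower. Of 12 goblet cell markers 7 were higher in colon and 1 lower, with sums of 67365 to 461291 in colon and 61149 to 377141 in ileum. The part of cell makeup in the differences of the enzymes was not tested.

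The other genes of the pathway showed both directions between the tissues. Of 105 tested genes in 8 lists (other GalNAc transferases, core and chain enzymes, fucosylation, terminal GalNAc and galactose, sialylation, sulfation, nucleotide sugar supply and mucins), 38 were higher in colon and 17 lower, or 52.4%. Over all genes tested 33.5% were called, 15% higher in colon and 18.5% lower, and the counts per list below stand against these shares. The sialylation list had 10 of 16 genes higher and 2 lower (median log2 1.18), and the fucosylation list other than Fut2 5 of 15 higher and 1 lower (median 0.36). Of the other GalNAc transferases 5 of 17 were higher and 3 lower, and of the core and chain enzymes 4 of 16 were higher and 5 lower. The mucins had 3 of 8 higher, the sulfation list 4 of 14 higher and 1 lower, the nucleotide sugar list 5 of 12 higher and 2 lower, and the terminal list 2 of 7 higher and 3 lower.

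St6galnac6, a sialyltransferase that makes disialyl structures, averaged 5158 ± 2193 normalised reads in colon and 66.7 ± 39.2 in ileum (SD, n = 12 each; log2 6.27 ± 0.26, limma adjusted p = 4.97e-15). B3gnt5, the synthase of lactotriaosylceramide, averaged 947 ± 226 in colon and 80.4 ± 25.9 in ileum (log2 3.5 ± 0.17), and St6galnac4 averaged 187 ± 49.3 in colon and 20.9 ± 7.98 in ileum (log2 3.18 ± 0.21). In the opposite direction, the core 2 enzyme Gcnt4 averaged 184 ± 59.0 normalised reads in colon and 1569 ± 468 in ileum (log2 -3.13 ± 0.18). The sulfotransferase Gal3st2 averaged 148 ± 56.2 in colon and 970.3 ± 283 in ileum (log2 -2.72 ± 0.19), and the ganglioside enzyme B4galnt1 averaged 244 ± 115 in colon and 1139 ± 532 in ileum (log2 -2.28 ± 0.25).

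Within a tissue, single groups were compared, with each KO group set against WT irradiated mice (8 weeks after chimerism). KO early mice (2 weeks) had no WT group of their own time. In that comparison KO and time after chimerism cannot be told apart. No member was called in any of the 8 comparisons of single groups within colon or ileum. Over all genes, 1.03% were called in KO late against WT irradiated colon, 0.204% in KO early against WT irradiated colon, 0.00522% in KO late against KO early colon and 0% in the other 5. The members with an unadjusted p under 0.05 numbered 3 in KO late and 4 in KO early against WT irradiated colon and 3 between the KO groups there, and 0, 1 and 4 in the same comparisons in ileum. The shares of all genes at this threshold were 16.5, 6.4 and 10.8% in colon and 0.821, 24.9 and 24.6% in ileum, so that 1 of 10 members in KO early ileum is below the background. edgeR on the recovered reads called no member in these comparisons, and DESeq2 called 2 in each KO group against WT irradiated colon (Galnt3 and B3galt5 in KO late, B3galt5 and Fut2 in KO early) and 2 between the KO groups in ileum (B3galt5 and Fut2). The values below are therefore descriptions of these mice. In KO late colon 16.7% of all genes lay above both WT irradiated mice without overlap and 18.5% below, and in KO early colon 7.9% above and 9.38% below. Against all 5 WT mice these shares were 5.43% above and 10.5% below in KO late colon, and 2.12% above and 4.29% below in KO early colon.

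In colon, Fut2 had 1469, 2204 and 3881 normalised reads in KO late mice and 3000.3, 4119, 7459 and 4604 in KO early mice. It had 1731 and 904 in WT irradiated mice and 1740.5, 1676 and 906 in WT non-irradiated mice. All 4 KO early mice lay above all 5 WT mice, as for 2.12% of all genes, and KO late mouse 49 lay within the WT range. The log2 fold change against WT irradiated was 0.89 ± 0.46 in KO late (limma adjusted p = 0.325) and 1.86 ± 0.44 in KO early (adjusted p = 0.158), and the difference between KO late and KO early was -0.96 ± 0.39 (adjusted p = 0.438).

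B3galt5 in colon had 12251, 13944 and 22225 normalised reads in KO late mice and 15153, 14988, 19568 and 22013 in KO early mice. WT irradiated mice had 8998 and 6369, and WT non-irradiated mice 11725, 8673 and 5807. All 7 KO mice lay above all 5 WT mice, as for 1.15% of all genes. Against WT irradiated the log2 fold change was 1.04 ± 0.37 in KO late (limma adjusted p = 0.228) and 1.22 ± 0.35 in KO early (adjusted p = 0.333).

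Galnt3 in colon had 1384, 1555 and 2042 normalised reads in KO late mice and 843, 1360.4, 1477 and 1186 in KO early mice. It had 800 and 750.1 in WT irradiated mice and 1087, 855 and 662 in WT non-irradiated mice. The KO late mice lay above every WT mouse, as for 5.43% of all genes, whereas KO early mouse 100 lay among them. Its log2 fold change against WT irradiated was 1.08 ± 0.29 in KO late (limma adjusted p = 0.121) and 0.62 ± 0.28 in KO early (adjusted p = 0.768).

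B3gnt6 in colon had 59.5, 32.5 and 35.5 normalised reads in KO late mice and 62.4, 48.7, 21.7 and 60.7 in KO early mice. It had 102 and 98.1 in WT irradiated mice and 150.4, 94.8 and 70.7 in WT non-irradiated mice. Every KO mouse lay below every WT mouse, as for 2.39% of all genes, at 28 to 132 reads per colon library in all. The log2 fold change against WT irradiated was -1.27 ± 0.47 in KO late (limma adjusted p = 0.247) and -1.14 ± 0.44 in KO early (adjusted p = 0.619).

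Gcnt3 in colon had 3061, 1564 and 3710 normalised reads in KO late mice and 4092, 1873, 2003 and 3598 in KO early mice. It had 5663 and 3520 in WT irradiated mice and 6920.1, 7167 and 5219 in WT non-irradiated mice. The lowest WT mouse, 61, lay among the KO mice. Against WT irradiated the log2 fold change was -0.77 ± 0.42 in KO late (limma adjusted p = 0.334) and -0.71 ± 0.40 in KO early (adjusted p = 0.867).

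**Figure D3:**
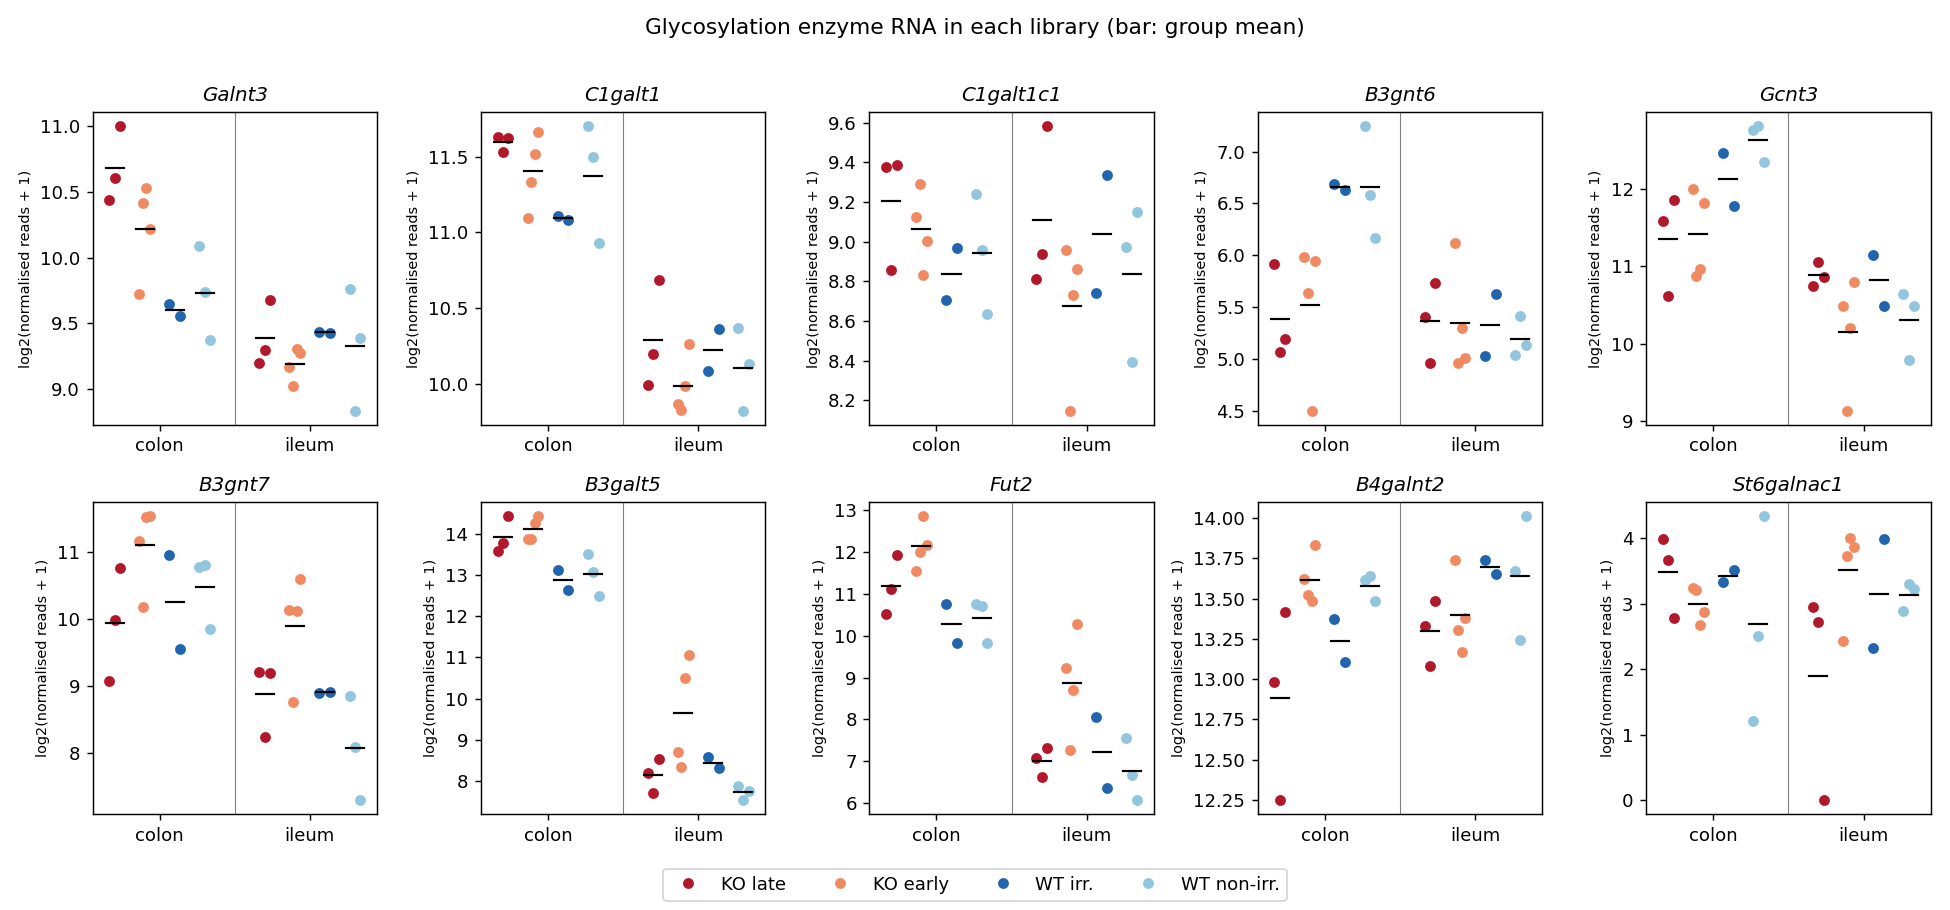
Each of the 10 enzymes in its own panel, as log2(normalised reads + 1) in every library, colon left and ileum right, coloured by group, with a bar at the group mean on this scale. In colon B3galt5 lies higher, and B3gnt6 lower, in all 7 KO mice than in all 5 WT mice. Over all genes 1.15% lie higher and 2.39% lower in this way. The axes differ between panels.

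B4galnt2 in colon had 8096, 4870 and 10927 normalised reads in KO late mice, 12606, 11775, 11457 and 14583 in KO early mice, 10597 and 8799 in WT irradiated mice and 12563, 12749 and 11459 in WT non-irradiated mice. KO late mice lay below KO early mice without overlap (log2 -0.73 ± 0.27, limma adjusted p = 0.438). It was the only member without overlap in that comparison, where 6.47% of all genes lay lower in this way. B3gnt7 in colon had 538, 1013 and 1732 normalised reads in KO late mice and 2313, 1163, 2946 and 2989 in KO early mice (log2 -1.17 ± 0.45, adjusted p = 0.438). WT irradiated mice had 1994 and 749 and WT non-irradiated mice 1760, 1791 and 930, which overlapped with both KO groups.

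The promoter windows of RefSeq (build GRCm38.p6, 250 bases before to 50 after an annotated start) matched 5 of the 10 members, with 7 windows: B3gnt7, Galnt3, C1galt1, B4galnt2 and B3galt5, which has 3 starts. Both strands were searched for TTCNNNGAA, the core of STAT sites, for CAAAGTCCA of HNF4 and for TTTATG of CDX factors. These occur in 8.30%, 0.475% and 11.8% of all 32851 windows of this length. Only the first start of B3galt5, on chromosome 16 with the window chr16:96235551-96235850 on the plus strand, had matches. They were TTTATG at bases 110 to 115 and TTCNNNGAA at bases 241 to 249 of the window, counted from its upstream end, and do not overlap. Which start these cells use was not read from the data, and a match is a description of letters, not of binding. The 2 sequences shown are that window, since B3galt5 differed most between the tissues, with both matches in capitals, and the window of B4galnt2, chr11:95914822-95915121 on the minus strand, a highly expressed member that was not called in any comparison and holds none of the 3 motifs.
B3galt5: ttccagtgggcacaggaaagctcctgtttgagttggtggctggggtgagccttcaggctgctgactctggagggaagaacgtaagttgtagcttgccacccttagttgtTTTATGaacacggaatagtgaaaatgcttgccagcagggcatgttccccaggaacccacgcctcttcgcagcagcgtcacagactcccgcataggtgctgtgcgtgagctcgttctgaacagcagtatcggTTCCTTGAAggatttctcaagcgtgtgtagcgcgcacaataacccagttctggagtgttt
B4galnt2: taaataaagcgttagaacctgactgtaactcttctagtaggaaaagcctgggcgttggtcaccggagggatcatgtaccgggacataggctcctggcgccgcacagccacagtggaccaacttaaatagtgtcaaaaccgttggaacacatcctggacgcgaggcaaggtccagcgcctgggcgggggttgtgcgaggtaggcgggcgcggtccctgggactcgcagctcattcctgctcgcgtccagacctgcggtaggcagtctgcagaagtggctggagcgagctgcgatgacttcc

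In the ileum most members overlapped between each KO group and WT irradiated mice, with B4galnt2 in KO late and Galnt3 in KO early as the exceptions. Fut2 had 135, 97.1 and 158 normalised reads in KO late mice and 600.8, 152, 418 and 1243 in KO early mice. It had 267 and 81.2 in WT irradiated mice and 187, 101 and 66.4 in WT non-irradiated mice. KO early mice 100, 118 and 120 lay above all other ileum libraries, while KO early mouse 117 lay among the rest. The log2 fold change of KO early against WT irradiated was 1.66 ± 0.67 (limma adjusted p = 0.169) and that of KO late against KO early -1.87 ± 0.59 (adjusted p = 0.103). KO late against WT irradiated was -0.21 ± 0.70 (adjusted p = 1).

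B3galt5 in ileum had 289.7, 206 and 371 normalised reads in KO late mice and 414.5, 320.1, 1452 and 2129 in KO early mice. It had 379 and 319 in WT irradiated mice and 234, 185 and 215 in WT non-irradiated mice. Mice 118 and 120 stood far above the other 10. KO late against KO early gave -1.51 ± 0.52 (limma adjusted p = 0.122) and KO early against WT irradiated 1.2 ± 0.59 (adjusted p = 0.217).

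B3gnt7 in ileum had 590.1, 301 and 584 normalised reads in KO late mice and 1122, 434, 1118 and 1549.7 in KO early mice. It had 478 and 482 in WT irradiated mice and 461, 271 and 157 in WT non-irradiated mice. The same 3 KO early mice, 100, 118 and 120, were highest. KO late against KO early gave -1.03 ± 0.42 (limma adjusted p = 0.164) and KO early against WT irradiated 1.00 ± 0.48 (adjusted p = 0.211).

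St6galnac1 in ileum had 6.7, 5.6 and 0 normalised reads in KO late mice and 4.4, 12.2, 15.1 and 13.6 in KO early mice, levels of at most 19 reads (log2 -1.62 ± 0.70, limma adjusted p = 0.182). In KO early mice 100, 118 and 120 Rn45s took 29.4, 17.0 and 19.3% of ileum reads, against 3.81% in mouse 117, 0.283 to 13.6% in KO late ileum, 0.130 and 0.549% in WT irradiated ileum and 0.448 to 25.4% in WT non-irradiated ileum. The part of Rn45s in the values of these 3 mice was not tested.

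B4galnt2 in ileum had 10309, 8664 and 11441 normalised reads in KO late mice and 13664, 10105.5, 9209 and 10674 in KO early mice. It had 13686 and 12886 in WT irradiated mice and 13026, 9694 and 16537 in WT non-irradiated mice. KO late mice lay below both WT irradiated mice, as for 3.83% of all genes, but not below all 5 WT mice. Against WT irradiated the log2 fold change was -0.40 ± 0.28 in KO late (limma adjusted p = 1) and -0.30 ± 0.26 in KO early (adjusted p = 0.455). Galnt3 in KO early ileum (520 to 632 normalised reads) lay below both WT irradiated mice (692 and 688.5), as for 16.9% of all genes, with a log2 of -0.24 ± 0.25 (adjusted p = 0.523). C1galt1, C1galt1c1, Galnt3, Gcnt3 and B3gnt6 had log2 fold changes between -0.66 and 0.07 against WT irradiated ileum in either KO group, with adjusted p of at least 0.275.

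WT irradiated mice, labelled 8 weeks after chimerism, were also compared with WT non-irradiated mice. Radiation and chimerism cannot be told apart in this contrast. No member was called in either tissue, and over all genes 0% were called. In colon the log2 fold changes of the members ran between -0.51 (Gcnt3) and 0.74 (St6galnac1), and in ileum between 0.01 (St6galnac1) and 0.83 (B3gnt7). B3galt5 and B3gnt7 in ileum were higher in both WT irradiated than in all 3 WT non-irradiated mice, as were 5.67% of all genes, and B4galnt2 in colon was lower, as were 2.23% of all genes. With 2 and 3 mice the intervals were wide: that of Fut2 in colon ran from -1.14 to 0.85 (log2 -0.14 ± 0.46, limma adjusted p = 1).

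Whether the KO differences themselves differed between the tissues was tested as an interaction. By limma none of the 10 members was called for KO late or for KO early (2 and 1 had an unadjusted p under 0.05, as had 5.5% and 9.88% of all genes, and edgeR and DESeq2 also called none), against 0.189% and 0.0408% of all genes. The largest estimate relative to its error was that of Galnt3, whose colon difference exceeded its ileum difference by a log2 of 1.12 ± 0.39 in KO late (limma adjusted p = 0.537) and 0.86 ± 0.37 in KO early (adjusted p = 0.457). For B3gnt6 the estimate was -1.30 ± 0.63 in KO late (adjusted p = 0.908) and -1.16 ± 0.60 in KO early (adjusted p = 0.541). For Fut2 in KO early it was 0.20 ± 0.87, with a 95% interval from -1.60 to 2.00, so the data do not tell whether Fut2 differed by the same factor in both tissues.

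Because the values of several members lay on one side in both KO groups, both KO groups together (7 mice) were also set against both WT groups (5 mice), each mouse weighted equally. This comparison was added after the values were seen, and it mixes 2 and 8 weeks and irradiated with non-irradiated controls. In colon 5 of the 10 members were called, 3 higher and 2 lower, against 4.29% of the 19145 genes tested in either direction, 1.5% higher and 2.78% lower. The members' median log2 fold change was 0.22, against 0.02 over all genes. The same 5 members had an unadjusted limma p under 0.05, against 27.7% of all genes and 34.3% of 105 other pathway genes. Since the members' own values prompted this comparison, their counts are descriptions and no test of the set. The adjusted p of each member below comes from this same comparison, so it is no independent test of that member either. The share of all genes with only some of the KO mice beyond every WT mouse was not computed.

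Fut2 rose in KO colon, at 1469 to 7459 normalised reads (median 3881) in KO mice and 904 to 1740.5 (median 1676) in WT mice, with 6 of 7 KO mice above every WT mouse. Its log2 fold change was 1.36 ± 0.30, or 2.56-fold (limma adjusted p = 0.0201). B3galt5 rose as well, at 12251 to 22225 (median 15153) in KO mice and 5807 to 11725 (median 8673) in WT mice, a log2 fold change of 1.06 ± 0.24 (adjusted p = 0.0225). All 7 KO mice lay above every WT mouse, as for 1.15% of all genes.

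Galnt3 rose by a log2 of 0.74 ± 0.19 (limma adjusted p = 0.0437), with 843 to 2042 normalised reads in KO mice and 662 to 1087 in WT mice and 6 of 7 KO mice above every WT mouse. B3gnt6 fell, with 21.7 to 62.4 normalised reads (median 48.7) in KO mice and 70.7 to 150.4 (median 98.1) in WT mice, a log2 of -1.2 ± 0.30 (adjusted p = 0.0393). All 7 KO mice lay below every WT mouse, as for 2.39% of all genes. Gcnt3 fell by 1.05 ± 0.27 on the log2 scale (adjusted p = 0.0438), with 1564 to 4092 normalised reads in KO mice and 3520 to 7167 in WT mice, and 4 of 7 KO mice below every WT mouse.

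C1galt1 (log2 0.22 ± 0.17), C1galt1c1 (0.22 ± 0.17), B3gnt7 (0.21 ± 0.35), B4galnt2 (-0.14 ± 0.21) and St6galnac1 (0.22 ± 0.47) were not called in KO colon. The 2 enzymes that were lower make the core 3 structure and the core 2 and core 4 branches, and the 3 that were higher start the chain, make type 1 chains and add α1,2 fucose. In ileum no member and no gene was called by limma (2413 genes had an unadjusted p under 0.05; edgeR called 1 gene and DESeq2 93). B3gnt7 there had a log2 fold change of 1.05 ± 0.32 (adjusted p = 0.396) with 5 of 7 KO mice above every WT mouse, Fut2 1.12 ± 0.45 and B3galt5 0.99 ± 0.40 (both adjusted p = 0.396).

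**Figure D4:**
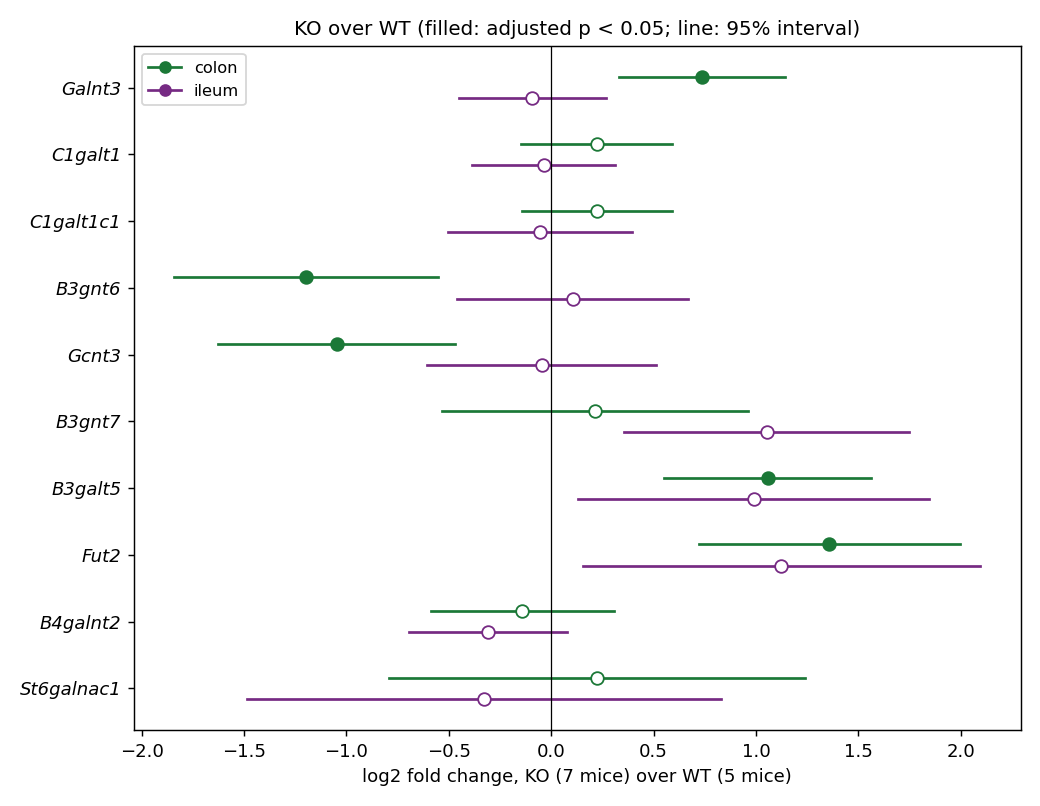
Log2 fold change of each of the 10 enzymes in both KO groups (7 mice) over both WT groups (5 mice), with 95% intervals, colon and ileum in separate rows. Filled points are called at an adjusted p under 0.05: Fut2, B3galt5 and Galnt3 higher and B3gnt6 and Gcnt3 lower in KO colon, and none in ileum.

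These calls in colon rest on few mice. When each mouse was left out in turn, Fut2 lost its call only without WT mouse 61 (adjusted p = 0.0534), and B3galt5 without mouse 118, 61 or 73 (adjusted p = 0.0577 to 0.0627). Gcnt3 lost it in 7 of 12 cases (mice 117, 118, 49, 50, 59, 72 and 73; up to 0.186), B3gnt6 in 8 (mice 117, 118, 50, 57, 59, 61, 72 and 73; up to 0.126) and Galnt3 in 10 (every mouse but 100 and 75; up to 0.126). With edgeR on the recovered reads Fut2, B3galt5 and B3gnt6 were called, and Gcnt3 (adjusted p = 0.0511) and Galnt3 (adjusted p = 0.0614) were not. DESeq2 on the same reads called all 5 members, and it called 9.66% of all genes, against 4.29% with limma. With no filter on low values B3gnt6 (limma adjusted p = 0.0516) and Gcnt3 (adjusted p = 0.0544) lost their calls, and with TMM scaling Galnt3 did (adjusted p = 0.0632).

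Background reads and the share of Rn45s varied between the colon libraries, and neither separated all KO mice from all WT mice. Reads in 1455 olfactory and vomeronasal receptor genes, taken as a measure of background because epithelium is not known to use most of them, were 701 to 997 per M in KO late colon and 389 to 650.2 in KO early colon. They were 208 and 549 in WT irradiated colon (mice 59 and 61) and 202, 205 and 635 in WT non-irradiated colon (mice 72, 73 and 75). With the log2 of these reads as a covariate, Fut2 (log2 1.94, limma adjusted p = 0.00886) and B3galt5 (1.54, adjusted p = 0.00832) stayed called, while Galnt3 (0.91, adjusted p = 0.0597), B3gnt6 (-0.88, adjusted p = 0.222) and Gcnt3 (-0.52, adjusted p = 0.389) were not. Without the 3 colon libraries with over 10% Rn45s (KO early mouse 100 and WT non-irradiated mice 72 and 73), Fut2 (1.84, adjusted p = 0.0369) and Galnt3 (1.05, adjusted p = 0.0475) stayed called. B3galt5 (1.42, adjusted p = 0.0587), B3gnt6 (-0.99, adjusted p = 0.39) and Gcnt3 (-0.99, adjusted p = 0.348) lost their calls there. Without WT mice 61 and 75, the 2 with high receptor reads, 42.9% of all genes and the same 5 members were called, with Fut2 at 0.99 and B3galt5 at 0.80.

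Of 12 goblet cell markers 2 (Clca1 and Klk1) were lower in KO colon and none higher, with a median log2 fold change of -0.77. Their sums were 67365 to 168122 normalised reads in KO late and 83331 to 215828 in KO early colon, against 153737 and 460236 in WT irradiated and 261070 to 461291 in WT non-irradiated colon. Of 8 colonocyte markers 3 (Guca2a, Mptx1 and Slc37a2) were lower, with a median of -1.02, and none of the 7 epithelial or 10 tested leukocyte markers was called. Of 9 enterocyte markers 1 was higher and 1 lower (Fabp2 and Mttp were the genes called). Of 7 tested neutrophil markers Ltf, which epithelium can also make, was higher. The 8 neutrophil markers summed to 1860 to 2473 normalised reads in KO late and 1087 to 3862 in KO early colon. Their sums were 756 and 1378 in WT irradiated and 1012 to 2344 in WT non-irradiated colon. The part of goblet cell and colonocyte share in the lower B3gnt6 and Gcnt3, which are expressed in these cells, was not tested.

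Among 105 other genes of the pathway none was called in any comparison of single groups within colon, and among 104 none within ileum. At an unadjusted p under 0.05 there were 25 (23.8%, against 16.5% of all genes) in KO late and 7 (6.67%, against 6.4%) in KO early against WT irradiated colon, and 13 (12.4%, against 10.8%) between the KO groups there. In ileum there were 0 in KO late and 34 (32.7%, against 24.9%) in KO early against WT irradiated, and 32 (30.8%, against 24.6%) between the KO groups. With both KO groups against both WT groups 4 of 105 (3.81%) were lower in colon and none higher, against 2.78% of all genes lower.

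These 4 were 3 sialyltransferases and 1 chain enzyme. St3gal3 had 1525 to 2798.5 normalised reads (median 1922) in KO colon and 2990.2 to 6852.5 (median 6221) in WT colon (log2 -1.22 ± 0.25, limma adjusted p = 0.0148). It did not overlap between KO and WT mice, as for 2.39% of all genes that lay lower in this way. B3gnt2, the main enzyme of lactosamine extension, had 1114 to 2132 in KO colon and 2294 to 3118.5 in WT colon, also without overlap (log2 -0.87 ± 0.18, adjusted p = 0.0148). St6galnac2 had 129 to 252 in KO colon and 241 to 435 in WT colon (log2 -0.95 ± 0.22, adjusted p = 0.0263). St3gal1, which sialylates core 1, had 562 to 1274 in KO colon and 1172 to 2524 in WT colon (log2 -0.95 ± 0.25, adjusted p = 0.0475).

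The genes whose levels followed Fut2 most closely over the 12 colon libraries, by Pearson's r of log2 values among 10140 genes, were Gpx2 (0.965), Ptk6 (0.956), Calr (0.951), Socs3 (0.951) and Pgs1 (0.950). Gpx2 is an epithelial glutathione peroxidase, Ptk6 an epithelial kinase, Calr an endoplasmic reticulum chaperone and Socs3 an inhibitor of STAT3 signalling. Gpx2 averaged 990.2 ± 437 normalised reads in KO late (n = 3), 2028 ± 700.4 in KO early (n = 4), 461 ± 169 in WT irradiated (n = 2) and 569 ± 263 in WT non-irradiated colon (SD, n = 3). Socs3 averaged 368 ± 353 in KO late, 807 ± 672 in KO early, 43.5 ± 25.7 in WT irradiated and 43.9 ± 21.4 in WT non-irradiated colon.

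Of the members, B3galt5 came 34th in colon (r = 0.909) and Gcnt3 had a negative r of -0.489. Over the 12 ileum libraries, among 10193 genes, the closest were Fam162a (0.900), the member B3gnt7 (0.894), Plet1os (0.889), P4ha1 (0.879) and the carbonic anhydrase Car4 (0.873), and B3galt5 came 19th (0.838). Car4 averaged 1438 ± 448 in KO late, 3166 ± 1873 in KO early, 1366 ± 375 in WT irradiated and 710.2 ± 89.2 normalised reads in WT non-irradiated ileum. None of these 5 leading genes was shared between colon and ileum, and the libraries behind each r share groups, depth and background, so the coefficients are descriptions with no test.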

How the data were processed

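RNA was measured in colon and ileum epithelium of 12 mice. Per the labels' protocols, 100 ng of total RNA went through a stranded kit with ribosomal depletion, while the molecule label says polyA RNA. Per the submitters' processing notes, bcl2fastq, HISAT 0.1.6 and HOMER were used with the mouse build mm9, while strand use in counting is not stated there. An annotated gene on the opposite strand overlaps B4galnt2, B3gnt7 and C1galt1 in GENCODE M21. A further gene, Gm43961, overlaps C1galt1 on the same strand by 1872 bases. Reads of these 3 members are uncertain to that extent. The design text of the series names macrophages of the colon, whereas every sample is labelled as sorted epithelium.

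The authors' deposited table held 1 signal per gene and library to 1 decimal: the reads, scaled by a size factor. All low values (up to 20 reads) were whole multiples of the value of 1 read within 0.06 normalised reads (100% in each library), and that value was 0.698 to 2.22. This scaling was that of median-of-ratios factors (product of both 0.9995 to 1.0001). Reads per library were 8.32 to 18.7 M. Between libraries the chi-square per gene was never below 14.4. Lanes are not given per library. Replicates were separate mice by number.

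Tests used limma-trend (limma 3.58.1, R 4.3.3) on log2(value + 1), for genes reaching 10 normalised reads in 2 or more libraries, with adjustment over all genes. Comparisons within a tissue took its 12 libraries as 4 groups with 1 shared spread; colon against ileum and the interactions took all 24 as 8 groups. There were 11 planned comparisons, and 2 of both KO against both WT groups were added after the values were seen. edgeR 4.0.16 and DESeq2 1.42.0 on the recovered reads, another pseudocount (5), no filter, TMM scaling, fewer groups in the fit, other controls, a background covariate and leaving out mice were alternatives. The limma fit was tested on simulated data. Lengths per kb came from the union of exons in GENCODE M21, another build than mm9.

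Colon and ileum with the same number came from 1 animal, by the titles. Deviations of the tissues from their group means correlated at -0.362 to 0.557 (median 0.221), over 0.1 in 5 of 10 mice, with WT irradiated left out as a group of 2. The members, the 8 lists and the markers were chosen with earlier results of these data known. Muc3 of the mucin list had no row in the table. All 10 members are named; other pathway genes are named where called within a tissue, or as the 3 largest in each direction between tissues at a mean of at least 100 normalised reads, as are the 5 genes closest to Fut2 in each tissue.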

Additional observations from a re-analysis of the deposited data

How the results depend on the processing

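The 7 calls between colon and ileum were made under every alternative run, except the loss of B3gnt6 and gain of St6galnac1 without libraries over 10% Rn45s. With the replicate block on the mouse, which pairs the tissues, 8042 genes and the same 7 members were called between the tissues, and the interactions had 130 (KO late) and 63 (KO early) genes and no member, against 37 and 8 without the block. Leaving out a mouse gave 5232 to 6450 genes and 7 members between the tissues, and 1 to 16 (KO late) and 1 to 15 (KO early) genes for the interactions. The interactions had 98 and 95 genes with DESeq2 and 132 and 91 with both WT groups as control.

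In KO late against WT irradiated colon (197 genes, 0 members), DESeq2 called 799 genes and 2 members, both WT groups as control 863 genes and 1 member (Galnt3), and the receptor covariate 80 genes; without a mouse there were 11 to 105 genes. In KO early against WT irradiated colon (39 genes), DESeq2 called 236 genes and 2 members, the covariate 100 genes and 2 members (Fut2, log2 2.18, and B3galt5, log2 1.49), and both WT groups as control 240 genes and 1 member (Fut2); without a mouse there were 3 to 73 genes. In KO late against KO early colon (1 gene), there were 0 without a filter, 0 with edgeR, 206 with DESeq2, 3 with only the groups compared, 9 with the covariate and 0 to 16 without a mouse.

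In ileum, KO early against WT irradiated had 191 genes with DESeq2 and 6 with the covariate, against 0 in limma. KO late against KO early had 1342 genes and 2 members with DESeq2, 2 genes with only the groups compared, and 1281 genes and 1 member (Fut2) with the covariate. WT irradiated against WT non-irradiated had 2 genes with DESeq2. Both KO against both WT groups had 1 gene with TMM, 1 with edgeR, 93 with DESeq2, 42 with the covariate and 0 to 15 without a mouse.

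Both KO against both WT groups in colon (821 genes, 5 members) had 1850 genes with DESeq2, 442 genes and 2 members with the covariate, 239 genes and 2 members without libraries over 10% Rn45s, and 8217 genes without WT mice 61 and 75. There were 3 members with no filter (without B3gnt6 and Gcnt3), 4 with TMM scaling (without Galnt3) and 3 with edgeR. Without a mouse there were 328 to 6698 genes and 1 to 5 members, with the 6698 without WT mouse 75 (35.0% of genes, 5 members) and 1 member without mouse 118, 61 or 73. The covariate also turned the split, with 352 genes higher and 90 lower against 288 and 533.

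No member's log2 fold change with an unadjusted p under 0.05 changed sign under any alternative; of 537 such values 41 lost and 11 gained a call. Group levels moved with TMM by more than 1 SD for 2 of 80, B3gnt7 and Galnt3 in WT irradiated ileum (484 and 696, against 480 and 690.2). The causes were not tested. Depth limits St6galnac1, at 0 to 24 reads, and the number of mice limits the comparisons within a tissue.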
